A study of Rattus norvegicus with 10 samples.

Results

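miR-143 and miR-145 are the pair of microRNAs most often used to mark smooth muscle, and they were described here through all 10 small RNA libraries of rats with collagen-induced arthritis (CIA). Every row of the count files whose name begins with rno-miR-143 or rno-miR-145 was taken, which gave 4 of the 723 mature miRNAs listed, namely both arms of each hairpin (rno-miR-143-3p, rno-miR-143-5p, rno-miR-145-5p and rno-miR-145-3p, written below without the prefix for rat). Each name is listed for 1 precursor. All 4 passed the filter on low counts and are among the 359 miRNAs tested. The rule goes by name alone.

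A miRNA hairpin is cut into a 5′ arm (5p) and a 3′ arm (3p), and the arm that is loaded into an Argonaute protein pairs through its seed with messages that it represses. miR-143 and miR-145 are processed from neighbouring hairpins of 1 host RNA, whose transcription in vascular smooth muscle is driven by serum response factor and myocardin. In that tissue they are known for holding cells in the contractile state, with KLF4 and KLF5 among the targets of miR-145. Fibroblasts and pericytes also make them, and skeletal muscle fibres make little.

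The 4 mature sequences are shown because the arms differ in seed and could each be counted separately. They come from RefSeq (build GRCr8) and are written 5′ to 3′ with the seed, bases 2 to 8, in capitals.
miR-143-5p: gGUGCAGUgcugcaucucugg
miR-143-3p: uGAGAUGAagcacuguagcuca
miR-145-5p: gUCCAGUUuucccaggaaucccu
miR-145-3p: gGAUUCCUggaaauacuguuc
The lengths are 21, 22, 23 and 21 bases, and none of the 4 seeds is held by another of the 693 mature sequences in the RefSeq table. On GRCr8 the Mir145 hairpin lies at chr18:57369983-57370070 and the Mir143 hairpin at chr18:57371349-57371453, both on the minus strand, with 1278 bases between them. Both lie inside the span of the long non-coding RNA gene Carmn, also named Mir143hg (chr18:57368191-57389112). Whether each hairpin falls in an exon or an intron of Carmn was not analysed here. The authors aligned to the older build rn4, so these positions describe the RefSeq entries and not the reads.

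The libraries form 5 groups of 2, all from female Wistar rats in which CIA had been induced. CIA_B is the tissue before any therapy. MS_E and MS_A are the tissue 1 h and 34 days into therapy by mechanical stimulation, in which a needle was inserted and twirled at points of the lower back and leg (the labels call it acupuncture). PLA_E and PLA_A are the same times of the placebo arm, which received a peritoneal saline injection. The animals' age at sampling is not given in the sources used here, and nothing says whether the replicates of a group are separate animals, so the p-values measure the spread between these libraries, which may be technical.

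The labels name muscle below the epidermis, the methods of the study name subcutaneous tissue that includes muscle, and the series description also mentions blood. Reads on miRNAs ranged from 1513799 in CIA_B replicate 1 to 8926170 in MS_E replicate 1. All 4 skeletal muscle markers were present in every library, with miR-133a-3p between 67920 and 139360 cpm (reads in proportion to the library total, corrected by the TMM factors of edgeR). The red cell miRNA miR-451-5p, the most abundant of the 3 erythroid markers, was between 12.9 and 79.8 cpm. No further miRNA that marks smooth muscle alone was at hand, so the cells that gave rise to miR-143 and miR-145 were not identified. In this bulk tissue, fewer cells of a type and less RNA per cell cannot be told apart.

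In each group 1 library held far more miR-1-3p, the miRNA of striated muscle, than the other. These were replicate 1 of CIA_B, PLA_E and PLA_A and replicate 2 of MS_E and MS_A, with 80400 to 122962 cpm of miR-1-3p against 10115 to 15564 cpm in the remaining 5. They are called here the miR-1-rich and the miR-1-poor libraries, a split seen in the data and named in no label, and the levels, fold changes and ratios of the members are given with it.

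miR-143-3p was among the miRNAs with the most reads and did not separate the groups. It made up between 3.28% and 9.86% of all miRNA reads and ranked between 4 and 8 among the 359 miRNAs tested. In CIA_B it was at 53915 and 73365 cpm in replicates 1 and 2. After 1 h it was at 77611 and 26333 cpm in MS_E and at 38184 and 101290 cpm in PLA_E. At 34 days it was at 67925 and 36046 cpm in MS_A and at 35735 and 81333 cpm in PLA_A. The range of each group overlapped that of every other group, and the lowest and the highest library were 3.85-fold apart. The group means ordered as PLA_E (69737 ± 44623 cpm, SD, n = 2), CIA_B (63640 ± 13754), PLA_A (58534 ± 32242), MS_A (51986 ± 22541) and MS_E (51972 ± 36259), and no neighbours in that order differed beyond their spread.

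miR-143-5p, the arm of the same hairpin that is rarely kept, was at the edge of what these depths count. It had between 7 and 77 reads per library, and its levels lay between 5.56 and 13.3 cpm, so that miR-143-3p had between 3667 and 13966 reads for each read of miR-143-5p. The level was 6.06 and 5.88 cpm before therapy, 5.56 and 7.18 cpm in MS_E and 9.49 and 9.38 cpm in MS_A. The placebo arm had 6.43 and 8.55 cpm at 1 h (PLA_E) and 7.22 and 13.3 cpm at 34 days (PLA_A). Both libraries of PLA_E, MS_A and PLA_A lay above both of CIA_B, and both of MS_A above both of MS_E. Of all 359 miRNAs, 11.7%, 16.2% and 20.9% lay above CIA_B in the same way in PLA_E, MS_A and PLA_A, and 16.7% in MS_A above MS_E. CIA_B replicate 1 is the shallowest library and its value rests on the 7 reads, where 3 reads would be 2.60 cpm.

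miR-145-5p, the arm of miR-145 known for repressing KLF4 and KLF5, had far fewer reads than miR-143-3p, and its group means were highest in the stimulated arm, with no difference that passed the test below. It ranked between 55 and 99 among the miRNAs tested. In CIA_B its level was 237 cpm in replicate 1 and 155 cpm in replicate 2. In MS_E it was 283 and 609 cpm, and in MS_A 306 and 450 cpm. In the placebo arm it was 318 and 122 cpm in PLA_E, and 358 and 180 cpm in PLA_A. Both libraries of MS_E and both of MS_A thus lay above both of CIA_B, as did 18.4% and 16.2% of all miRNAs tested, whereas the placebo groups overlapped with CIA_B and with the stimulated groups. The group means were 446 ± 231 cpm in MS_E (SD, n = 2), 378 ± 102 in MS_A, 269 ± 126 in PLA_A, 220 ± 139 in PLA_E and 196 ± 58.1 in CIA_B, and the ranges of neighbours in that order overlapped.

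miR-145-3p, the opposite arm of the hairpin, did not separate the groups. Before therapy its level was 132 and 100 cpm. The stimulated arm had 113 and 64.0 cpm at 1 h and 134 and 84.7 cpm at 34 days, and the placebo arm 76.1 and 140 cpm at 1 h and 85.9 and 149 cpm at 34 days. Its highest and lowest libraries were 2.32-fold apart, against 4.99-fold for miR-145-5p, and all 5 groups overlapped.

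**Figure D1:**
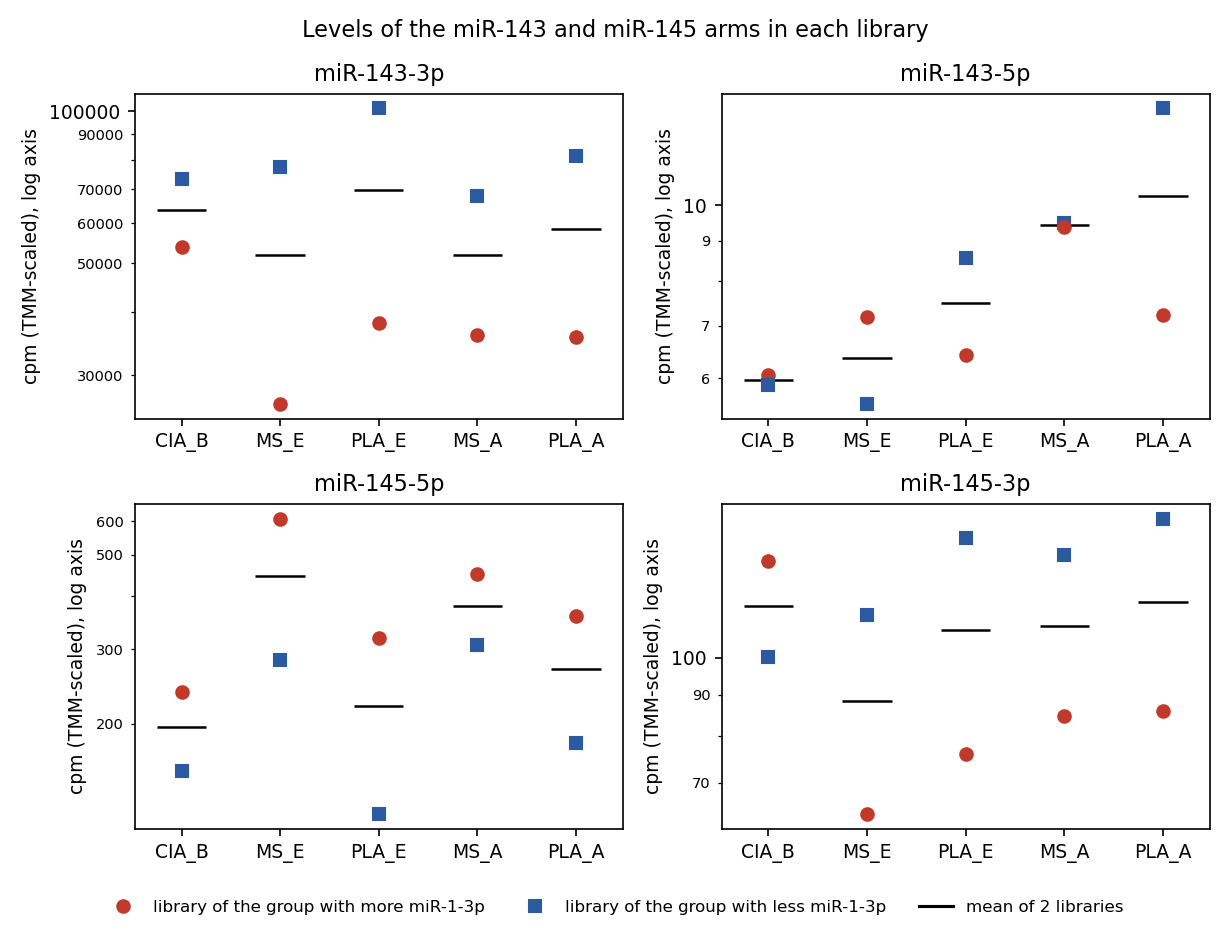
Level of each arm (vertical axis, cpm scaled by TMM factors, log axis that does not start at 0) in the 5 groups (horizontal axis), with 1 point per library and a bar at the mean of the 2 libraries. Circles are the miR-1-rich and squares the miR-1-poor libraries. Circles lie below squares in every group for miR-143-3p and above them in every group for miR-145-5p.

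For miRNAs of this tissue the study lists changes after therapy relative to before. The comparisons here ask whether the stimulation or the placebo moved the tissue from its state before therapy, and whether arms or times differ. No arm of miR-143 or miR-145 passed the thresholds of the study (unadjusted p under 0.05 and more than 2-fold) in any of the 9 comparisons fitted with edgeR's quasi-likelihood test. The share of all 359 miRNAs that passed was 6.41% for MS_E, 0.557% for PLA_E, 1.11% for MS_A and 7.24% for PLA_A against CIA_B. It was 3.9% for MS_E against PLA_E, 1.95% for MS_A against PLA_A, 3.9% for MS_A against MS_E, 2.79% for PLA_A against PLA_E and 3.34% for the interaction of arm and time. At an adjusted p under 0.05 edgeR called 0 of the 359 in each, and between 2 and 27 had an unadjusted p under 0.05. limma-voom called 0 in each, and DESeq2 called between 0 and 8, none of them an arm of miR-143 or miR-145. Over the 36 fold changes of the members the smallest adjusted p was 0.678, for miR-143-5p in PLA_A against CIA_B.

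The largest fold changes of the members were those of miR-145-5p in the stimulated arm. In MS_E against CIA_B its log2 fold change was 1.19 with a standard error of 0.62 and a 95% interval from -0.21 to 2.59 (edgeR adjusted p = 0.802). It was 0.95 in MS_A against CIA_B, 0.17 in PLA_E against CIA_B and 0.46 in PLA_A against CIA_B. With library size in place of TMM scaling it was 1.48 in MS_E, 1.08 in MS_A and 0.72 in PLA_E against CIA_B. The medians of all miRNAs were then 0.23, 0.06 and 0.43. These comparisons share the CIA_B libraries. Between the arms it was 1.02 at 1 h (interval from -0.38 to 2.41, edgeR adjusted p = 0.832) and 0.49 at 34 days (-0.89 to 1.88), and the change from 1 h to 34 days differed between the arms by -0.53 (-2.48 to 1.43). Each group holds 1 miR-1-rich and 1 miR-1-poor library, so leaving 1 out also unbalances the split. The estimate at 1 h moved much with single libraries left out. It was 0.53 against CIA_B without MS_E replicate 2, and 0.36 against PLA_E without the same library. Against PLA_E, leaving out replicate 2 of that group gave 0.46 and leaving out its replicate 1 gave 1.87, and against CIA_B it was 1.60 without MS_E replicate 1. The last 2 values passed the unadjusted thresholds (edgeR adjusted p = 0.785 and 0.890).

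For the 3 remaining arms no value of this fit reached 2-fold. The log2 fold changes of miR-143-3p lay between -0.42 and 0.25, those of miR-145-3p between -0.39 and 0.30, and those of miR-143-5p between -0.23 and 0.79. In PLA_A against CIA_B miR-143-5p was 1.01 with library size in place of TMM scaling, and with 1 library left out miR-143-3p reached -1.46 (MS_E against PLA_E, without MS_E replicate 1), neither past the unadjusted p threshold. The intervals were wide. For miR-143-3p in MS_E against PLA_E the interval ran from -2.06 to 1.21, so that changes of more than 2-fold in either direction were within it.

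**Figure D2:**
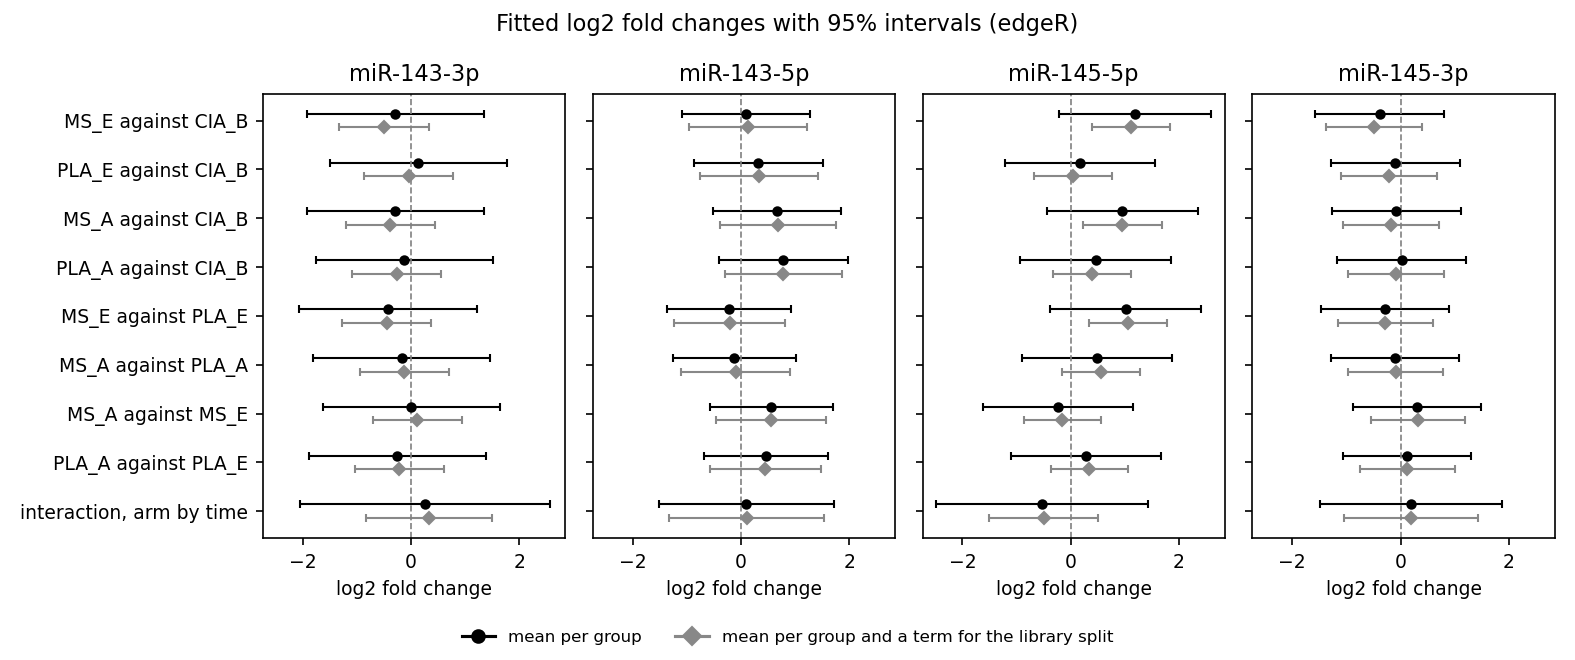
Log2 fold change (horizontal axis) of each arm in the 9 comparisons (vertical axis), from edgeR on all 10 libraries, with 95% intervals. Circles are the fit with a mean per group and diamonds the fit that adds a term for the miR-1 split. All intervals of the circles cross 0, and 3 of the diamonds of miR-145-5p, for MS_E and MS_A against CIA_B and MS_E against PLA_E, have intervals above 0.

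The split between miR-1-rich and miR-1-poor libraries ran through both miRNAs, in opposite directions. The difference in log2 level, miR-1-rich minus miR-1-poor, was -0.44, -1.56, -1.41, -0.91 and -1.19 for miR-143-3p in CIA_B, MS_E, PLA_E, MS_A and PLA_A. For miR-145-5p it was 0.61, 1.10, 1.38, 0.55 and 0.99 in the same order. miR-143-3p was thus lower in the miR-1-rich library of 5 of 5 groups and miR-145-5p higher in 5 of 5, beside 13.9% of all 359 miRNAs that were lower and 17.5% that were higher in all groups. With library size in place of TMM scaling both directions held in 5 of 5 groups, with medians of -0.78 for miR-143-3p and 1.45 for miR-145-5p. miR-145-3p was higher in 1 of 5 groups, with a median difference of -0.79 that shrank to -0.09 on library size alone. miR-143-5p was higher in 2 of 5 groups, with a median of -0.02 on the TMM scale and 0.13 on library size alone.

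Read within each set of libraries, miR-145-5p kept the stimulated groups on top. In the miR-1-rich libraries it was at 609 cpm in MS_E, 450 in MS_A, 358 in PLA_A, 318 in PLA_E and 237 in CIA_B. Among the miR-1-poor libraries it was at 306 cpm in MS_A, 283 in MS_E, 180 in PLA_A, 155 in CIA_B and 122 in PLA_E. Both stimulated libraries lay above the other 3 in each set, an arrangement noticed after the values were seen and held by 4 of the 359 miRNAs (1.11%). A random order of the libraries within each set would give about this share, so the arrangement does not single miR-145-5p out. The log2 difference of MS_E from CIA_B was 1.36 in the miR-1-rich and 0.87 in the miR-1-poor set, and that of MS_E from PLA_E was 0.94 and 1.21.

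Fitted with a term for the split, which was set with these patterns known, miR-145-5p passed the thresholds of the study in MS_E against CIA_B (log2 fold change 1.11, interval 0.38 to 1.83, unadjusted p = 0.00739, edgeR adjusted p = 0.176). It also passed in MS_E against PLA_E (1.06, interval 0.34 to 1.78, unadjusted p = 0.00920, edgeR adjusted p = 0.527). In MS_A against CIA_B it was 0.96, under the 2-fold threshold (edgeR adjusted p = 0.848). In that fit 11.4%, 6.13% and 3.34% of all miRNAs passed in these 3 comparisons, and between 2.51% (PLA_E against CIA_B) and 13.6% (PLA_A against CIA_B) in the other 6, with 3.9%, 8.36%, 5.01% and 4.46% for MS_A against PLA_A, MS_A against MS_E, PLA_A against PLA_E and the interaction. miR-143-3p had values of -0.50, -0.45 and -0.38 there and passed in none of the 9 comparisons, and neither did miR-143-5p or miR-145-3p.

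The arm ratio of miR-145, which needs no scaling between libraries, was higher in the miR-1-rich libraries and, within each set, in the stimulated ones. Of all reads on miR-145, the 5p arm took 64.3% in CIA_B replicate 1 (95% Wilson interval 59.7 to 68.7, 426 reads) and 60.7% in replicate 2 (58.4 to 63.0). In MS_E it took 71.5% and 90.5%, and in PLA_E 80.7% and 46.5%. In MS_A it took 69.6% and 84.2%, and in PLA_A 80.7% and 54.8%. PLA_E replicate 2 was the library in which the 3p arm had more reads than the 5p arm (interval of the 5p share 43.4 to 49.7), and MS_E replicate 2 had the highest 5p share (89.6 to 91.3). The intervals cover counting error only, since reads without molecular identifiers are not independent molecules.

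As a ratio, miR-145-5p to miR-145-3p ran from 0.870 in PLA_E replicate 2 to 9.52 in MS_E replicate 2. In the miR-1-rich libraries it was 9.52 in MS_E, 5.31 in MS_A, 4.18 in PLA_E, 4.17 in PLA_A and 1.803 in CIA_B. Among the miR-1-poor libraries it was 2.51 in MS_E, 2.28 in MS_A, 1.55 in CIA_B, 1.21 in PLA_A and 0.870 in PLA_E. The ratio was higher in the miR-1-rich library of all 5 groups, as in 20.8% of the 101 hairpins with both arms tested, and the stimulated libraries again stood above the others of their set. That arrangement, noticed after the values were seen and built in part on the same miR-145-5p counts as its level, was held by 1 of the 101 hairpins (0.99%), miR-145 itself. A random order within each set would give about this share of hairpins too, so it is not a result about miR-145. The 5p to 3p ratio of miR-143 was also higher in the miR-1-rich library of all 5 groups.

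**Figure D3:**
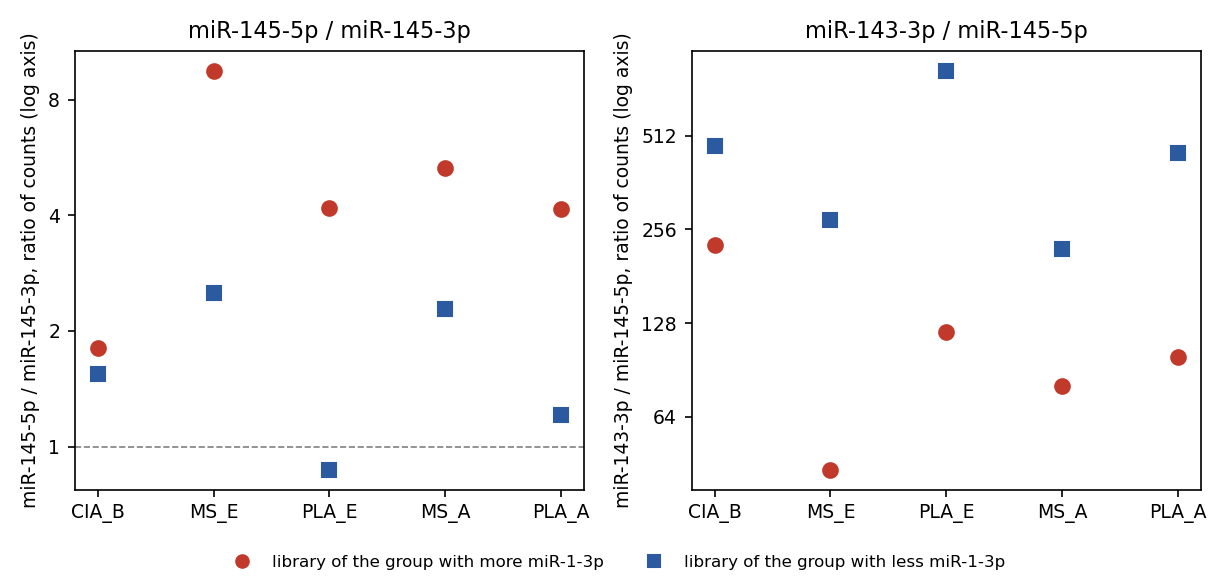
Ratio of miR-145-5p to miR-145-3p counts (left) and of miR-143-3p to miR-145-5p counts (right), both on log axes, in the 5 groups, with 1 point per library. Circles are the miR-1-rich and squares the miR-1-poor libraries, and the dashed line marks equal counts of both arms of miR-145. The first ratio is higher in the circle of each group, and the second is lower.

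The arms of miR-145 shifted against each other more than those of most hairpins counted as deeply. The SD of the log2 ratio of 5p to 3p over the 10 libraries was 1.06 for miR-145, which ranked 24 of the 101 hairpins, whose median was 0.71. Among the 32 hairpins with a mean of at least 100 counts on both arms, a limit chosen after the data were seen, it ranked 4, beside a median of 0.57. miR-143 had an SD of 0.69 and ranked 56 of 101, and its rarer arm averaged 42.7 counts. Counts of different sequences are not calibrated to numbers of molecules, so a ratio is compared here only with the same ratio in another library.

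**Figure D4:**
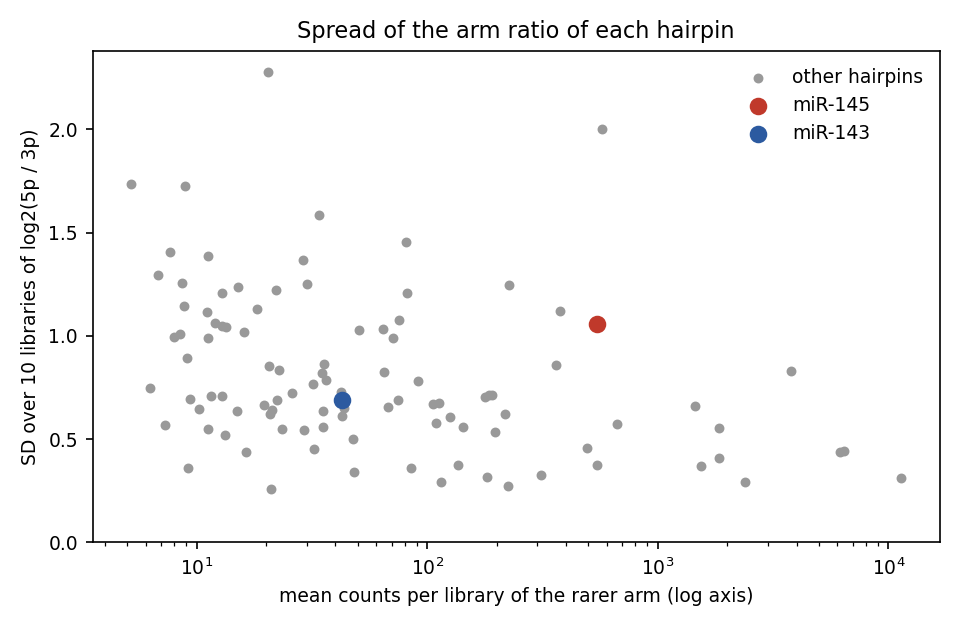
SD over the 10 libraries of the log2 ratio of 5p to 3p counts (vertical axis) against the mean counts per library of the rarer arm (horizontal axis, log), with 1 point for each of 101 hairpins. miR-145 sits at an SD of 1.06 and 547 counts, where most hairpins have a smaller spread, and miR-143 at 0.69 and 42.7 counts.

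The 2 miRNAs of the cluster did not keep a fixed proportion. miR-143-3p had between 43.2 reads (MS_E replicate 2) and 829 reads (PLA_E replicate 2) for each read of miR-145-5p, a 19.2-fold range. Before therapy the ratio was 227 and 473. The stimulated arm had 274 and 43.2 at 1 h and 222 and 80.1 at 34 days, and the placebo arm 120 and 829 at 1 h and 99.8 and 452 at 34 days. It was lower in the miR-1-rich library of each group, as follows from the opposite gaps of its terms. Against miR-145-3p the range of miR-143-3p was much narrower, from 410 to 732 reads for each read. This ratio too was lower in the miR-1-rich library of each group, with 410 to 502 against 507 to 732 in the miR-1-poor libraries.

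Tested over all groups at once and without regard to the miR-1 split, which is part of the spread within groups, no value separated the 5 groups beyond that spread. In an exact permutation test over the 945 ways to place 10 libraries in 5 pairs (one-sided for a large spread between groups), the p was 0.941 for the level of miR-143-3p, 0.452 for miR-145-5p and 0.872 for miR-145-3p. The ratio of miR-143-3p to miR-145-5p gave an exact permutation p of 0.741 and that of the miR-145 arms 0.659. All 5 were 0.941 after adjustment over these 5 values, and the smallest p that the test can give is 0.00106. With library size in place of TMM scaling the exact permutation p of miR-145-3p was 0.0444 before adjustment. The share of the variance of the log2 values that lay between groups was 46.8% for miR-145-5p and 9.08% for miR-143-3p.

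With the members left out, the miRNAs with the most similar and most opposed patterns were found by Pearson's r of log2 cpm over the 10 libraries. The libraries share depth and the miR-1 split, so r is a description without a test. Between the members, miR-143-3p had an r of -0.89 with miR-145-5p and 0.88 with miR-145-3p, and the arms of miR-145 had -0.75. Closest to miR-143-3p were miR-151-3p (r = 0.93), miR-192-5p (0.93), miR-98-5p (0.91), miR-30a-5p (0.90) and miR-532-5p (0.89), all of them lower in the miR-1-rich library of 5 of 5 groups. Most opposed were miR-324-5p (-0.95), miR-494-3p (-0.93) and miR-872-3p (-0.92). Closest to miR-145-5p were miR-30b-5p (0.94), miR-17-5p (0.89), miR-494-3p (0.88), miR-324-5p (0.84) and miR-29c-5p (0.83), all higher in the miR-1-rich library of 5 of 5 groups. Most opposed to it were miR-107-3p (-0.94), miR-25-3p (-0.86) and miR-532-5p (-0.84). miR-324-5p and miR-494-3p thus stand among the closest to miR-145-5p and among the most opposed to miR-143-3p. Of these, miR-494-3p was near the floor, from 0 to 33.7 cpm with a median of 1.81 cpm.

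Of 8 miRNAs outside the cluster that are known to modulate smooth muscle cells, all were tested and 1 passed the thresholds in 1 of the 9 comparisons, PLA_A against CIA_B, where 7.24% of all 359 miRNAs passed. That was miR-21-5p, known for promoting growth of vascular smooth muscle after injury, which had a value of 1.40 on the log2 scale, with a standard error of 0.54 (edgeR adjusted p = 0.543). It was at 1461 and 3066 cpm in CIA_B and at 5310 and 6659 cpm in PLA_A. In MS_E against CIA_B the median log2 fold change of the 8 was 0.72, beside 0.06 over all miRNAs tested, and 0 of them passed. They went both ways, with miR-26a-5p at -0.48 and let-7d-5p at -0.44. The median was 0.23 in PLA_E, 0.35 in MS_A and 0.37 in PLA_A against CIA_B, 0.38 in MS_E against PLA_E, and between -0.23 and 0.08 in the other 4 comparisons. miR-221-3p and miR-222-3p, which favour the proliferative state of these cells, lay between 20.8 and 85.2 cpm and between 9.52 and 33.7 cpm.

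Markers of other cell types moved with some of the same libraries. All 3 fibroblast and mesenchyme markers were tested and none passed in any comparison. Their summed level was 1418 to 2701 cpm in the miR-1-rich and 2338 to 3494 cpm in the miR-1-poor libraries. This sum was lower in the miR-1-rich library of CIA_B, MS_E and MS_A. It was higher in that of PLA_E (2701 against 2436 cpm) and PLA_A (2609 against 2500 cpm). The 2 arms of the endothelial miR-126a summed to 9919 to 14624 cpm and 4274 to 14716 cpm, and neither passed. miR-126a-3p was higher in the miR-1-rich library of 5 of 5 groups, from 2609 against 2359 cpm in MS_A to 2628 against 773 cpm in MS_E, whereas miR-126a-5p was higher in 2 of 5 and lower in 3. For skeletal muscle the sum of 4 markers was 182298 to 268478 cpm and 83894 to 159965 cpm, and 3 of the 4 were higher in the miR-1-rich library of 5 of 5 groups. The fourth, miR-133a-3p, was higher in 3 of 5 and lower in PLA_E (70505 against 118939 cpm) and PLA_A (89171 against 139360 cpm). Of 7 epithelial markers 6 were tested and 4 passed as higher in MS_E against CIA_B, as did 5.29% of all miRNAs. The summed level of all 7 was 447 and 119 cpm in MS_E replicates 1 and 2, against 33.7 and 70.9 cpm in CIA_B. In MS_E replicate 2, miR-205 and miR-203a-3p, which did not pass, were at 59.0 and 41.5 cpm. The 4 that passed were much higher in MS_E replicate 1 than in replicate 2. There miR-141-3p was at 220 and 3.43 cpm, against 1.73 and 2.94 cpm in CIA_B, and miR-200b-3p at 34.1 and 1.72 cpm. Of these 4, miR-141-3p and miR-200b-3p also passed as higher in MS_E against PLA_E and as lower in MS_A against MS_E, and miR-141-3p as lower in the interaction. miR-200b-3p and miR-200c-3p were at 0 in CIA_B replicate 1, and miR-200c-3p also in PLA_E replicate 2. miR-145-5p was higher in the other library of MS_E, replicate 2. Of 5 leukocyte markers 4 were tested, and 3 passed as higher in PLA_A against CIA_B, as did 5.01% of all miRNAs, and the sum was 12753 and 1154 cpm in PLA_A replicates 1 and 2. Of these 3, miR-142-3p and miR-142-5p also passed as lower in MS_A against PLA_A and as higher in PLA_A against PLA_E, and miR-142-5p as lower in the interaction. Of the 4 tested, miR-150-5p was higher in the miR-1-rich library of 5 of 5 groups, miR-142-3p of 4, miR-142-5p of 3 and miR-223-3p of 2. miR-223-3p passed as higher in MS_E and MS_A against CIA_B, and its log2 fold changes in PLA_E and PLA_A, which did not pass, were 0.97 and 1.18. It was at 10.4 and 28.1 cpm in CIA_B, at 64.7 and 70.1 cpm in MS_E and at 57.4 and 51.6 cpm in MS_A. In the placebo arm it was at 52.0 and 25.1 cpm in PLA_E and at 43.3 and 45.9 cpm in PLA_A. The 3 erythroid markers, of which 1 passed in MS_E and 2 in PLA_A against CIA_B, summed to 17.4 to 88.6 cpm over all libraries. The part of these cell types in the values of miR-143 and miR-145 was not tested.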

How the data were processed

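Small RNA of 10 tissue samples was sequenced (TruSeq small RNA kit, Illumina HiSeq instrument). The authors called bases with CASAVA 1.8, discarded short reads, aligned to rn4 and to the rat miRNAs of miRBase with miRDeep2, and deposited whole-number read counts per precursor and mature miRNA without normalization. Groups were taken from the titles. A mature miRNA on several precursors (34 of 723) was given its largest count, which matters for no member. The series table (20 value columns that no label matches) was left out.

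Counts were fitted with edgeR 4.0.16 (R 4.3.3): TMM factors (0.675 to 1.41), a filter of 1 cpm or more in 5 libraries or more (359 miRNAs with 99.97% of the reads), a mean per group over all 10 libraries, the quasi-likelihood test and Benjamini-Hochberg adjustment over the 359. With 2 libraries against 2, a two-sided exact permutation test cannot go below 0.333, so none was made for pairs of groups. Levels are cpm, and 3 counts are 2.60 cpm in the shallowest library and 0.366 to 0.828 in the others. Ratios are of counts; 0.5 was added before the log2 ratios of all hairpins. No library was a duplicate of the other in its group (chi-square over degrees of freedom between 1562 and 7794). The correlation of same-numbered libraries ranged from -0.54 to 0.59 between groups. It was positive where the same number is miR-1-rich in both groups and negative elsewhere. It follows the split and cannot show whether the numbers pair the samples.

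The members and lists were chosen with earlier results of these data known. Named miRNAs are the members, the lists of cell type and smooth muscle miRNAs, and any that shares a member's seed. Also named are the 5 most and 3 least similar to miR-143-3p and to miR-145-5p among the tested miRNAs other than the members. The test and the permutation test were tested on simulated data. Alternatives were limma-voom (limma 3.58.1), DESeq2 1.42.0, other scalings and filters, summed counts, only the libraries compared, the replicate block, a term for the miR-1 split and each library left out; other scalings for the gap within groups and the limit of 100 counts for arm ratios were added after the data were seen. RefSeq sequences matched 645 of the 723 names. Figures were drawn with matplotlib 3.10.9, and tables were made with pandas 2.3.3, scipy 1.17.1 and numpy 2.4.6 in Python 3.11.15.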

Additional observations from a re-analysis of the deposited data

How the results depend on the processing

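No fold change of a member had an adjusted p under 0.05 under any alternative (387 values without and 160 with a library left out), and the smallest was 0.176. Of those 387 the ones that turned sign lay between -0.24 and 0.24. For miR-143-3p, PLA_E against CIA_B was -0.012 with limma-voom and -0.046 with the split term, and PLA_A against CIA_B was 0.067 with library size only. Its MS_A against MS_E, 0.00038 in the fit reported, was -0.076 with DESeq2 size factors and with DESeq2, -0.023 with library size only, -0.0049 without a filter, -0.24 with a mean of at least 100 counts, -0.12 with summed counts and -0.012 with the replicate block. For miR-145-3p, PLA_E against CIA_B was 0.24 with library size only, PLA_A against PLA_E was -0.040 with a mean of at least 100 counts, and PLA_A against CIA_B was -0.044 with DESeq2 size factors, -0.043 with DESeq2, -0.13 with a mean of at least 100 counts, -0.014 with limma-voom and -0.084 with the split term. The cause was not tested. Among these alternatives miR-145-5p passed the unadjusted thresholds with the split term only (1.11 in MS_E against CIA_B and 1.06 in MS_E against PLA_E). The replicate block changed no call of a member, and MS_E against CIA_B of miR-145-5p was 1.27 in it. Whether the numbers pair the samples is not known. miR-143-5p has no value under a mean of at least 100 counts, since it did not pass. With library size only the medians of all miRNAs moved to between -0.35 and 0.43, and the level of miR-145-3p had an exact permutation p of 0.0444. Its median gap within groups was then -0.09, that of miR-145-5p 1.45 and that of miR-143-5p 0.13. With each library left out in turn, the log2 fold change of miR-143-3p ran from -1.34 to 0.29 in MS_E against CIA_B, from -0.73 to 0.67 in PLA_E against CIA_B, from -0.79 to 0.018 in MS_A against CIA_B, from -0.95 to 0.35 in PLA_A against CIA_B, from -1.46 to 0.49 in MS_E against PLA_E, from -0.68 to 0.62 in MS_A against PLA_A, from -0.58 to 1.01 in MS_A against MS_E, from -1.07 to 0.62 in PLA_A against PLA_E and from -0.71 to 1.24 in the interaction. With each library left out in turn, the log2 fold change of miR-143-5p ran from -0.10 to 0.20 in MS_E against CIA_B, from 0.12 to 0.52 in PLA_E against CIA_B, from 0.59 to 0.69 in MS_A against CIA_B, from 0.16 to 1.16 in PLA_A against CIA_B, from -0.42 to -0.02 in MS_E against PLA_E, from -0.50 to 0.48 in MS_A against PLA_A, from 0.44 to 0.76 in MS_A against MS_E, from -0.16 to 0.85 in PLA_A against PLA_E and from -0.34 to 0.70 in the interaction. With each library left out in turn, the log2 fold change of miR-145-5p ran from 0.53 to 1.60 in MS_E against CIA_B, from -0.68 to 0.74 in PLA_E against CIA_B, from 0.60 to 1.26 in MS_A against CIA_B, from -0.084 to 0.78 in PLA_A against CIA_B, from 0.36 to 1.87 in MS_E against PLA_E, from 0.16 to 1.07 in MS_A against PLA_A, from -0.63 to 0.42 in MS_A against MS_E, from -0.31 to 1.14 in PLA_A against PLA_E and from -1.38 to 0.13 in the interaction. With each library left out in turn, the log2 fold change of miR-145-3p ran from -0.90 to -0.03 in MS_E against CIA_B, from -0.57 to 0.28 in PLA_E against CIA_B, from -0.40 to 0.16 in MS_A against CIA_B, from -0.53 to 0.39 in PLA_A against CIA_B, from -0.81 to 0.24 in MS_E against PLA_E, from -0.45 to 0.43 in MS_A against PLA_A, from -0.067 to 0.81 in MS_A against MS_E, from -0.44 to 0.62 in PLA_A against PLA_E and from -0.38 to 0.68 in the interaction. A library left alone in its group is assumed to vary like the others. It is either miR-1-rich or miR-1-poor and is set against groups that hold both, so these ranges also reflect the split.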
